A study of Mus musculus with 8 samples.

Results

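The myogenic regulatory factors Myf5, Myf6, Myod1 and Myog were followed through the H3K56ac peaks of mouse muscle stem cells (MuSCs). The 4 genes lie in 3 loci, because Myf5 and Myf6 are neighbours on chromosome 10 and count as 1 locus. Each locus was the gene body, from the first to the last annotated base, plus 100 kb on either side. The 3 loci span 617.0 kb and hold 68 of the 105600 peaks of the merged list, with 18 peaks at Myod1, 29 at Myog and 21 at Myf5 and Myf6.

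The mark H3K56ac is acetylated lysine 56 in histone H3, and ChIP-seq (sequencing of immunoprecipitated chromatin) located it in freshly isolated MuSCs, the stem cells of skeletal muscle, that had been sorted by FACS from mice of the C57BL/6 strain. The labels give no genotype for Control. The paper calls the MuSCs of its H3K56ac data wild type, and elsewhere shows control mice with floxed Sirt6 alleles and no Cre. Sirt6mKO mice carried Pax7-ICNCre together with 2 floxed Sirt6 alleles (Sirt6 fl/fl), and their cross included a ROSA26-YFP strain. The Cre recombinase was constitutively active under the Pax7 promoter, so that the deacetylase SIRT6 was lost from cells with a history of Pax7 expression. The labels describe 8 libraries, with 2 replicates in each of 4 groups, H3K56ac and input for Control and H3K56ac and input for Sirt6mKO, where input is chromatin that skipped the immunoprecipitation. The labels name no age for these mice. All values below come from 1 list of merged intervals with no value per library. A peak is therefore present or absent, and its strength and the reads behind it cannot be read from the list. Control and Sirt6mKO cannot be told apart, and there is no replicate error. The list is several times longer than the set of H3K56ac peaks that the paper counts in wild-type MuSCs. The paper also reports more H3K56ac peaks in Sirt6mKO MuSCs than in Control. Widths and covered shares below need not hold for Control alone.

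The 4 factors are basic helix-loop-helix (bHLH) proteins that bind DNA at E-boxes as dimers with the broadly expressed E proteins. MYF5 and MYOD commit cells to the muscle lineage, myogenin (MYOG) drives differentiation into myotubes, and MYF6 (also called MRF4) acts in the embryo and is the main family member of mature myofibres. Quiescent MuSCs carry Myf5 transcripts, turn on Myod1 when they are activated and turn on Myog when they differentiate. H3K56ac is found on newly assembled nucleosomes and at active promoters and enhancers, and SIRT6 removes it.

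The sequences of 2 of the 4 gene starts were in the RefSeq promoter table for GRCm38.p6, the same build as mm10. They are shown because the peaks treat them differently, with a break in front of Myog and no break at Myf5. Capitals mark E-boxes (CANNTG, both strands), the MEF3 motif (TCAGGTTTC, both strands) and a MEF2-like motif (CTANNNNTAG, both strands), and none of the marked matches overlaps another. The Myog sequence is chr1:134289754-134290053 on the plus strand, and the Myf5 sequence is chr10:107486085-107486384 on the minus strand.
Myog: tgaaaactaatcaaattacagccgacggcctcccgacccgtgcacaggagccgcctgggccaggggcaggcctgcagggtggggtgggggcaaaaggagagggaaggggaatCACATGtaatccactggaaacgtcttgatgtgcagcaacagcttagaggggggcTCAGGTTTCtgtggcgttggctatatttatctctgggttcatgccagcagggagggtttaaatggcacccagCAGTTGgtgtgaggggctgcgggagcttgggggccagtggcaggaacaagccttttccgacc
Myf5: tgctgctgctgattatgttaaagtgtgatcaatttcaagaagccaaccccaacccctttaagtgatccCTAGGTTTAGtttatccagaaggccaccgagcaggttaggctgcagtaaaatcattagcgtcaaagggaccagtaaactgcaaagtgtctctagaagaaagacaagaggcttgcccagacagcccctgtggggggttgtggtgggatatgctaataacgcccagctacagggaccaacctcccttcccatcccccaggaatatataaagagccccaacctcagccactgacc

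In these 300-base windows, an E-box was found in 72.3% of the 32851 promoters of the table, the MEF3 motif in 0.429% and the MEF2-like motif in 3.69%. The Myog window held 2 E-boxes, CACATG and CAGTTG, and the MEF3 motif. The Myf5 window held a match to the MEF2-like motif, CTAGGTTTAG, and a TATA motif (TATAAA, both strands), which 13.6% of all promoters hold. The MEF2-like pattern leaves its middle bases free, here GGTT, and fixes the last base as G. AT-rich stretches that end otherwise, such as CTATATTTAT in the Myog window, were not looked for. The lack of a match at Myog holds for this pattern only. The Myog window had 9 CpG dinucleotides and the Myf5 window had 3, beside a median of 7 over the table. A match of letters is a description and not a shown binding site.

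Both enhancer stretches below come from regions upstream of the genes that are known as enhancer territory. They are shown because peaks covered them, and each is the run of 300 bases under a peak, inside the territory, with the most E-boxes, so that their number of E-boxes is a consequence of the choice. Capitals mark the E-boxes. The Myod1 stretch is chr7:46353108-46353407 on the plus strand, in the core enhancer region 23.4 to 23.1 kb upstream of Myod1. It holds 5 E-boxes, of which 2 have the form CAGCTG. The Myf5 stretch is chr10:107539862-107540161 on the minus strand, in the limb enhancer region 54.0 to 53.7 kb upstream of Myf5 and within the neighbouring gene Ptprq. It holds 6 E-boxes, of which 0 have the form CAGCTG.
Myod1 core enhancer region: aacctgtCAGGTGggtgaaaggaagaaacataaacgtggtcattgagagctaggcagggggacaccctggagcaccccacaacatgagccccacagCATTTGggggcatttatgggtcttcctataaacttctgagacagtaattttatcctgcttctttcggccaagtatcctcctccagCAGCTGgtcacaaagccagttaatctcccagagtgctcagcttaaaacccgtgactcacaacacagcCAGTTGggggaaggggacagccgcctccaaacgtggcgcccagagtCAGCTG
Myf5 limb enhancer region: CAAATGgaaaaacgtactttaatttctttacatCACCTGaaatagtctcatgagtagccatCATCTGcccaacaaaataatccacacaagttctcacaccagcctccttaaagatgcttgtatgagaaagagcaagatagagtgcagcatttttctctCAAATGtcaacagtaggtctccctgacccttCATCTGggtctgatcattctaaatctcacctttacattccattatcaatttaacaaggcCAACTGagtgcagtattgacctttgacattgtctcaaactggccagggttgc

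Myf5 and Myf6 lay together under 1 very wide peak. The peak at chr10:107477063-107507301 was 30239 bp wide and covered both genes, the 6.72 kb between them and their flanks. It reached 21.2 kb upstream and 9.07 kb downstream of the Myf5 transcription start site (TSS) at position 107486134, and 12.6 kb upstream and 17.7 kb downstream of the Myf6 TSS at position 107494737. Each of the 3 exons of Myf5 (ENSMUSG00000000435.1, chr10:107482908-107486134, minus strand) and of the 3 exons of Myf6 (ENSMUSG00000035923.4, chr10:107492853-107494737, minus strand) was covered to 100%. A gene body wholly under peaks was found for 1.68% of the 21938 protein-coding genes, which were not matched to these short genes in length. Of all 105600 peaks, 17 were at least as wide as this one, itself included, and promoter peaks of 10 kb or more belonged to 2.59% of protein-coding genes. A promoter peak is here the widest peak within 3 kb of a TSS of the gene.

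Myod1, the factor of activated MuSCs, had a promoter peak of ordinary width. The peak at chr7:46375213-46377932 was 2720 bp wide, from 1261 bp upstream to 1458 bp downstream of the TSS at position 46376474. A second peak of 1073 bp followed after a gap of 40 bases and ended 54 bases before the end of the gene. The pair covered 96.4% of Myod1 (ENSMUSG00000009471.4, chr7:46376474-46379099, plus strand), with exons 1 and 2 covered to 100% and exon 3 to 94.4%. The promoter peak was 0.793 times the median of 3430 bp over the 14872 protein-coding genes with one, and 34.4% of those genes had a narrower one.

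Myog, the differentiation factor, had 3 separate peaks within 3 kb upstream of its first exon or over it. The widest, 1581 bp at chr1:134287221-134288801, lay wholly upstream, from 2768 to 1188 bp before the TSS. The next was 699 bp wide and lay 876 to 178 bp before the TSS. The third was 767 bp wide, from 51 bp upstream to 715 bp downstream, and covered the TSS at position 134289989. Of Myog (ENSMUSG00000026459.5, chr1:134289989-134292548, plus strand) 28.0% was covered, all of it in exon 1 and the start of intron 1, while exons 2 and 3 had 0 bases under a peak. The widest of the 3 peaks was narrower than the promoter peaks of most genes, with 14.8% of the 14872 below it.

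The break between the last 2 of these Myog peaks was 126 bases long, from 177 to 52 bases before the TSS (chr1:134289812-134289937). It holds the MEF3 motif, 69 to 61 bases before the TSS, and the E-box CACATG, 123 to 118 bases before it. The second E-box, CAGTTG, lies 3 to 8 bases after the TSS and was under the third peak. Of the 300 bases printed for Myog 58% were under peaks, and of those printed for Myf5 100%, the MEF2-like motif and the TATA motif included. The annotation puts the Myog TSS at base 236 of the printed window and the Myf5 TSS at base 251. By this annotation the TATA motif of Myf5 lies 20 to 25 bases after the TSS. Distances of motifs hold for the annotated starts only, and other starts would shift them, so that CAGTTG at Myog and TATAAA at Myf5 could lie before the start. Where transcription starts in these cells was not tested. Peak edges depend on the peak caller and on the merge, and the resolution of edges this close together was not tested.

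**Figure D1:**
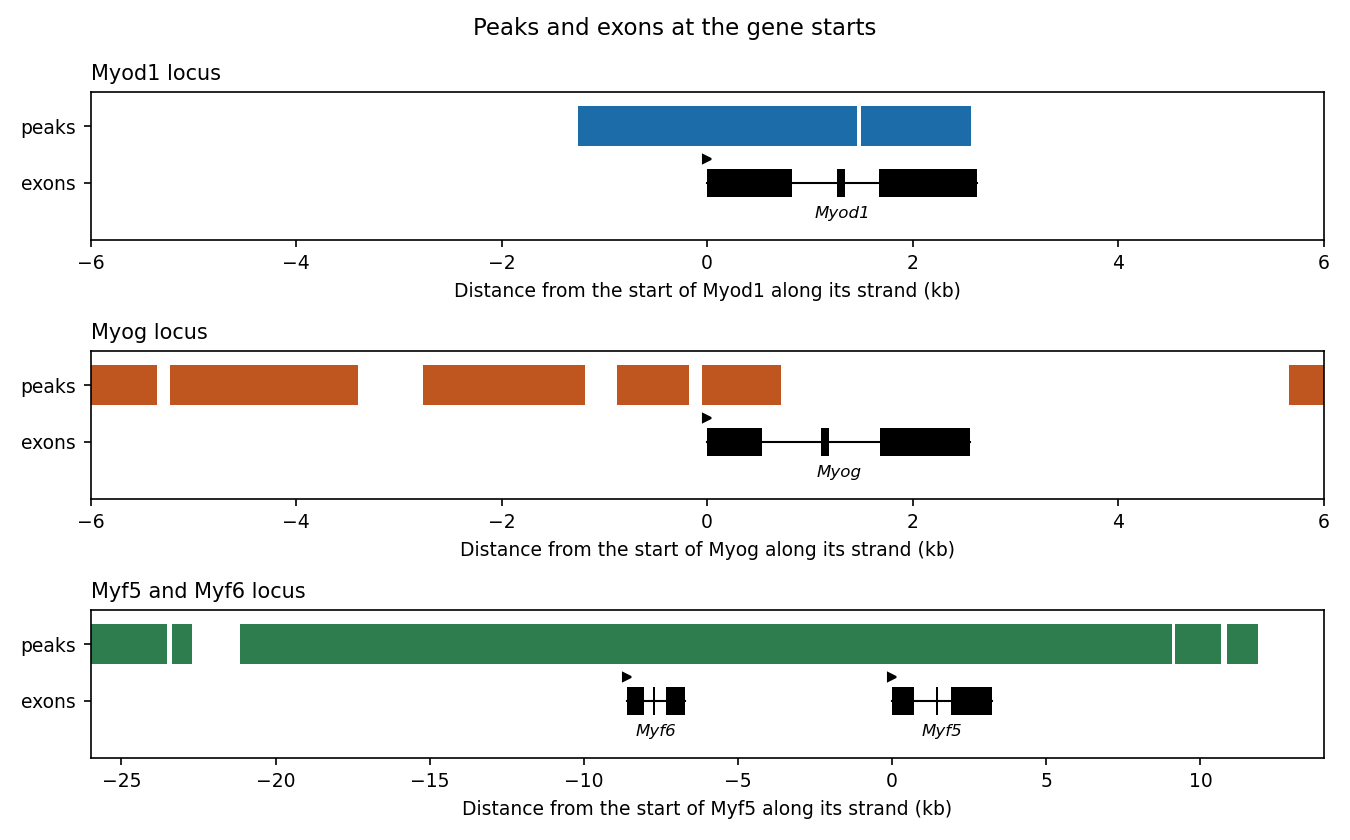
Peaks (coloured bars) and exons (black boxes, joined by introns) against the distance from the start of Myod1, Myog or Myf5 along its strand, in kb, with arrowheads at the gene starts. Myod1 sits under 2 adjacent peaks, Myog has 3 short peaks upstream of and over its first exon with a break of 126 bases before the start, and Myf5 and Myf6 share 1 peak of 30239 bp.

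All 4 members had a peak within 3 kb of the TSS and a peak over the TSS, as had 67.8% and 62.1% of the 21938 protein-coding genes. With so many genes marked, presence alone separates the members little from the rest. Their widths set them apart from each other, from 1581 bp at Myog and 2720 bp at Myod1 to 30239 bp at Myf5 and Myf6. When peaks less than 1 kb apart were joined, the Myog promoter peak became 10806 bp wide, the Myod1 one 3833 bp and the shared one 33032 bp, so that Myod1 and Myog changed places in the order.

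Of the protein-coding genes at other loci, 3 were named for each member by how alike the edges of their promoter peaks lie around the TSS, measured as the summed absolute difference of the upstream and downstream edge. For Myod1 these were Cstf2t, Arhgap19 and Ndufa9, with summed differences of 34, 36 and 36 bp. For Myog they were Camk2n2, Mnd1 and Gm438, at 79, 166 and 251 bp. The closest to Myf5 were Msgn1 (3183 bp), Tshz3 (3471 bp) and Hoxa7 (7132 bp), and the closest to Myf6 were Hoxa9 (2858 bp), Srebf2 (4382 bp) and Klf9 (5763 bp). Msgn1, itself a bHLH factor gene of the early mesoderm, had a peak of 33132 bp from 24205 bp upstream to 8926 bp downstream of its TSS. Hoxa7 and Hoxa9 were under the same peak of 33097 bp.

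The whole loci differed in how much of them was covered. Peaks covered 32% of the Myf5 and Myf6 locus (chr10:107382908-107594737), 21.5% of the Myog locus (chr1:134189989-134392548) and 14.3% of the Myod1 locus (chr7:46276474-46479099). The median over all protein-coding genes, measured in the same way, was 9.61%, with quartiles of 2.74% and 18.6%. A lower share than that of the locus was found for 95.1% of genes in the case of Myf5 and Myf6, 81.1% for Myog and 64.1% for Myod1. Gene density varies between loci, and the windows hold 4 coding genes at Myod1, 7 at Myog and 4 at Myf5 and Myf6. Among genes whose window holds the same number of coding genes, give or take 1, the median share was 7.83% for the density of the Myod1 and the Myf5 and Myf6 locus and 11% for that of the Myog locus.

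Most peaks were narrow in all 3 loci. The median width was 904.5 bp at Myod1, 1061 bp at Myog and 1155 bp at Myf5 and Myf6, close to the 974 bp over all peaks. Peaks of 5 kb or more numbered 1 at Myod1, 0 at Myog and 3 at Myf5 and Myf6, and such peaks make up 6.00% of the whole list. At Myod1 the widest peak was not at the gene but 65.4 to 59.3 kb upstream, over the end of the neighbouring Otog, with 6115 bp. At Myog the widest had 4773 bp and lay 47.2 to 42.4 kb upstream, outside any annotated gene.

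The peaks lay mostly upstream of the members. Of the 100 kb upstream of Myod1 25.1% was covered, and of the 100 kb downstream 1.2%. At Myf5 and Myf6 46.9% was covered upstream of the pair and 9% downstream of it, and at Myog the shares were 26.1% and 16.6%. Over all protein-coding genes the median difference between upstream and downstream was 0.0 percentage points. An excess upstream at least as large as at the member was found for 4.57% of the genes in the case of Myod1 (23.9 points), for 1.28% in the case of Myf5 and Myf6 (37.9 points) and for 17.4% in the case of Myog (9.49 points).

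**Figure D2:**
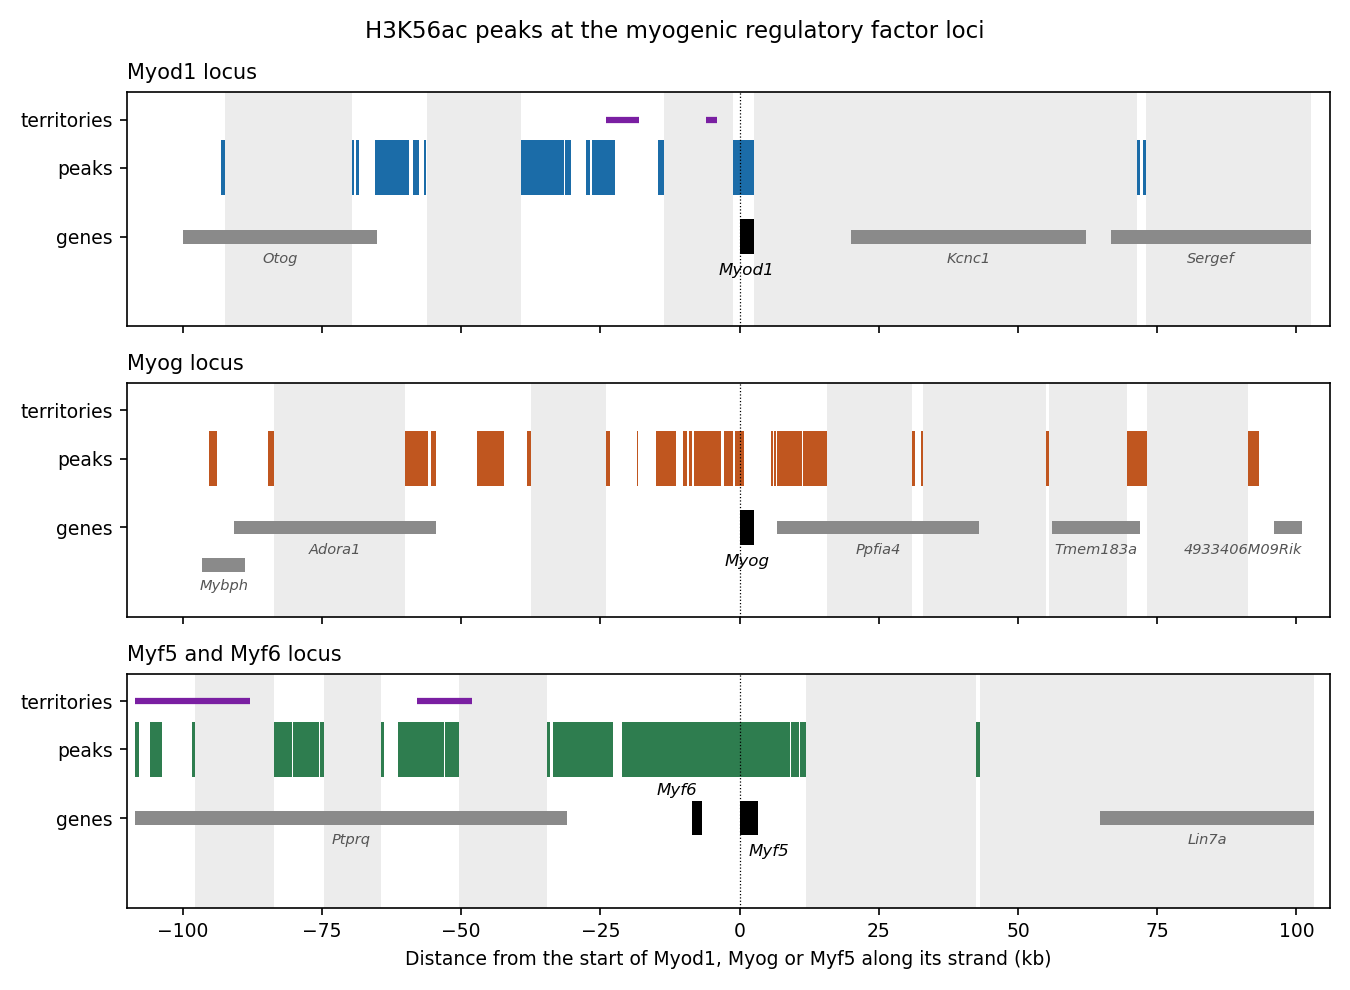
Peaks (coloured), enhancer territories (purple), genes (members in black, other protein-coding genes in grey) and silent stretches of at least 10 kb (grey shading) by distance from the start of Myod1, Myog or Myf5 along its strand, in kb. Peaks crowd upstream of Myod1 and of Myf5 and Myf6, and the downstream sides are mostly silent. The satellite cell region of Myf5 runs on beyond the left edge.

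In bins of 10 kb, the Myod1 locus was covered most between 40 and 30 kb upstream, at 86.8%, then between 70 and 60 kb upstream, at 63.5%, and between 30 and 20 kb upstream, at 47.9%. The bin that starts at the Myod1 TSS reached 25.3%, below the mean of 32.6% over protein-coding genes with a promoter peak. At Myog the highest bin was the one just before the TSS, at 80.8%, against a mean of 24.9%, and the bins on the other side of the TSS held 46.5% and 55.9%. The 3 bins from 20 kb upstream to 10 kb downstream of the Myf5 TSS were covered to 100%, 100% and 98.9%, and a further bin 60 to 50 kb upstream to 93.1%. For each of the 3 genes the profile thus had more than 1 maximum, and for Myod1 the highest bins were away from the gene.

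**Figure D3:**
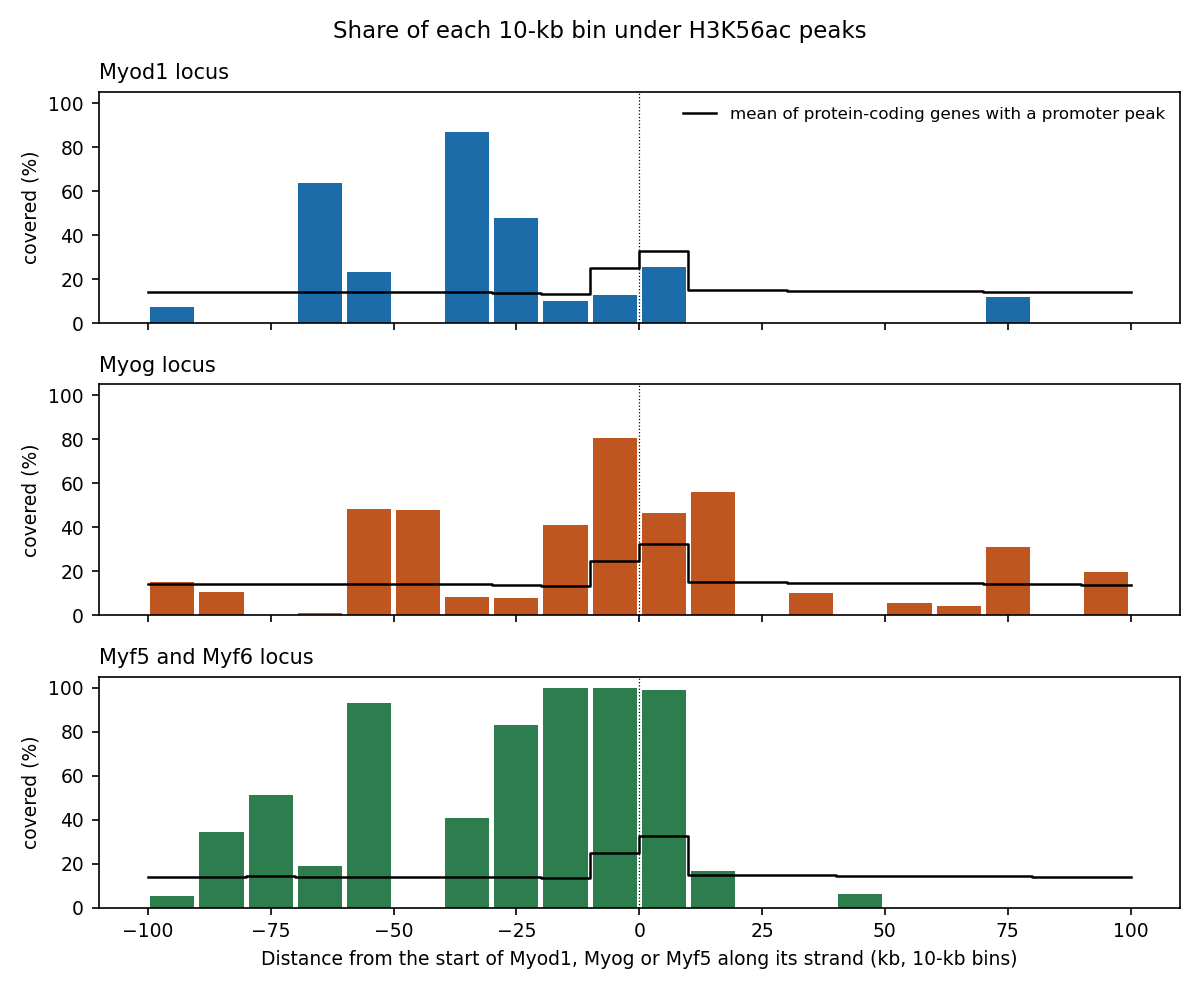
Share of each 10-kb bin under peaks (bars, in percent from 0) by distance from the start of Myod1, Myog or Myf5 along its strand, with the mean over protein-coding genes with a promoter peak as a black step line. Upstream bins reach 86.8% at Myod1 and 100% at Myf5, with 93.1% in a separate bin 60 to 50 kb upstream of Myf5. The bins 20 to 40 kb downstream of Myod1 and of Myf5 are at 0.

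Known enhancer territory of Myod1 was covered in part. The core enhancer, which drives Myod1 in the embryo, was looked for between 24 and 18 kb upstream of the TSS (chr7:46352474-46358473). A peak of 2401 bp, from 24.8 to 22.4 kb upstream, covered 26.1% of this stretch at its far end, and 4.43 kb next to it had none. At the same distances from the TSS 27.3% of protein-coding genes had a peak, with a mean covered share of 10.2%. The distal regulatory region, which is active in differentiated muscle, was looked for between 6 and 4 kb upstream (chr7:46370474-46372473) and had 0 peaks, as had all but 19.1% of protein-coding genes at those distances. It lies in a silent stretch of 12.4 kb between the peak 14.7 to 13.7 kb upstream and the promoter peak. The peaks from 39.2 to 30.3 kb and from 27.6 to 22.4 kb upstream form groups of 4 and 3 peaks, and the group of 4 lies outside the territories looked at here. The group of 3 begins with a peak of 808 bp and 48.3 CpG dinucleotides per kb, 27.6 to 26.8 kb upstream, over an exon of the long non-coding RNA gene 1700025L06Rik, which was named after its values were seen.

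The territories of Myf5 were covered to different degrees. The stretch between Myf6 and Myf5, which holds enhancers of the epaxial somite (chr10:107486135-107492852), was under the shared peak to 100%. The limb enhancer region between 58 and 48 kb upstream of Myf5 (chr10:107534135-107544134) held 3 peaks, of 2516, 1048 and 5514 bp, that covered 73.8% of it. A peak at these distances was found for 36.2% of protein-coding genes, and as large a share for 2.87% of them. Among genes with a promoter peak, 45.5% had a peak there and the mean share was 14.1%. The region between 140 and 88 kb upstream (chr10:107574135-107626134), which holds elements needed for Myf5 in satellite cells, had 7 peaks that covered 21.5% of it, where 64.6% of the genes had a peak and the mean share was 11.3%. Both far regions lie inside Ptprq, a receptor phosphatase gene of the inner ear and kidney, which was covered to 29.8% over its 203.0 kb and had no promoter peak.

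In the first 1 kb upstream of Myog, which is known to be enough for expression in the embryonic somite, 75% was under the last 2 peaks described above. At this distance 59.6% of protein-coding genes had a peak, and the mean over genes with a promoter peak was 75.3%. These 2 peaks end a longer series. When peaks were grouped wherever the gap to the next was at most 2 kb, 9 peaks at Myog formed 1 group of 15801 bp, from 15.1 kb upstream to 0.715 kb downstream of the TSS. In the same way 8 peaks at Myf5 and Myf6 formed a group of 46447 bp, from 34.6 kb upstream to 11.9 kb downstream of the Myf5 TSS. The group at the Myod1 TSS held only its 2 peaks and spanned 3833 bp.

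The silent stretches complete the picture. Runs of at least 10 kb without a peak numbered 5 at Myod1, 6 at Myog and 5 at Myf5 and Myf6 and made up 74.3%, 52.5% and 61.7% of the loci. The longest at Myod1 began 2.57 kb after the TSS, in the last exon, and ran for 68.8 kb to 71.3 kb downstream (chr7:46379046-46447812). It takes in the whole of Kcnc1, a neuronal potassium channel gene, over whose 42.2 kb there were 0 peaks. At Myf5 and Myf6 a silent stretch of 30.7 kb began 11.9 kb after the Myf5 TSS (chr10:107443592-107474269), and after 1 peak of 651 bp another of 60.03 kb reached the edge of the locus and went on beyond it to 81.4 kb in all. The longest at Myog was shorter, 23.5 kb inside Adora1 (chr1:134206431-134229895). Only 2.94% of protein-coding genes had a shorter longest silent stretch than Myog, against 44.2% for Myod1 and 37.5% for Myf5 and Myf6, and the median was 77.3 kb. Among genes of similar density the median was 66.0 kb for Myog and 85.8 kb for the other loci. Longer genes have longer windows, and the genes were not matched to the short members in length. The order of the loci depends on the window: with flanks of 200 kb the longest stretch was 90.5 kb at Myog, longer than the 81.4 kb at Myf5 and Myf6.

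Repeated sequence can lose peaks when only single alignments are kept. In the reference the silent stretches of at least 10 kb were repeat-masked to 18% at Myod1, 26.0% at Myog and 30.5% at Myf5 and Myf6, and the bases under peaks to 13.8%, 17.8% and 18.9%. The longest silent stretch alone was masked to 17.1% at Myod1 and 24.4% at Myf5 and Myf6, above the share under peaks of the same locus, and to 15.7% at Myog, below it. Over the genome 37.7% was masked outside peaks and 19.4% under peaks. The part of repeats in the silent stretches was not tested.

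The base composition under the peaks differed between the loci. The Myod1 promoter peak had 40.8 CpG dinucleotides per kb, the Myog peak over the TSS 30 and the shared Myf5 and Myf6 peak 10.2, beside 16.5 over all peaks and 7.65 outside them. These are unlike intervals, since the shared peak is far wider and lies mostly away from the gene starts. The loci also differed outside peaks, with 13.1 CpG dinucleotides per kb at Myod1, 11.9 at Myog and 7.62 at Myf5 and Myf6. E-boxes were at 5.88, 3.91 and 5.29 per kb in the same 3 peaks and at 5.62 over all peaks. Over the whole loci the E-box density under peaks was 6.27 per kb at Myod1, 5.36 at Myog and 4.99 at Myf5 and Myf6, against 5.94, 6.03 and 5.58 outside them, and the bases under peaks were thus richer in E-boxes than the rest only at Myod1, among these 3 loci.

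Besides the members, 11 protein-coding genes reach into the loci. Of these, 6 have their TSS inside, and 5 of the 6 had a promoter peak, all at Myog. They were Mybph (19.5% of the gene covered), which codes for a myosin-binding protein, Adora1 (16.5%), an adenosine receptor, Ppfia4 (27.1%), a liprin, Tmem183a (15.4%) and 4933406M09Rik (0%). Of the rest, Chil1 was covered to 0%, Otog, an inner ear gene, to 2.90%, Sergef to 6.18%, and Lin7a to 31.5%, though to 0% in its part within the locus. Promoter peaks of other protein-coding genes thus lay in the Myog locus, and not in the other two.

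The factors that work with or on the 4 members were described in lists. These lists, and the list of other lineages below, were chosen with earlier results of these data known. Their genes are not random draws, so the intervals given with them are no test against all protein-coding genes. Of 46 genes in 5 lists, 43 had a promoter peak, a share of 93.5% (Wilson 95% interval 82.5% to 97.8%, counting error only), with a median width of 5159 bp, against 67.8% and 3430 bp over all protein-coding genes. All 3 E proteins, the dimer partners, had one, from 3700 bp at Tcf3 to 17532 bp at Tcf4. Of the 9 upstream factors 8 had one, with a median of 10874 bp, from 938 bp at Meox1 to 21301 bp at Pax7, which marks MuSCs and acts upstream of Myf5, and only Meox2, a homeobox gene of the early somite, had none.

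All 8 partners of the factors, such as MEF2 proteins and coactivators, had a promoter peak, from 1257 bp at Mef2c to 17348 bp at Mef2d. Inhibitors, which sequester E proteins or compete for E-boxes, had one in 10 of 11 cases, from 619 bp at Twist1 to 15198 bp at Id3, an inhibitor of differentiation, and Twist2 had none. Among the 15 targets that act in differentiation 14 had one, and a peak lay over the TSS in 8 (53.3%, beside 62.1% of all protein-coding genes). Their median width was 2253 bp, narrower than in the other 4 lists. The narrowest was 496 bp at Myh3, the embryonic myosin heavy chain, the widest 9745 bp at Des, the intermediate filament desmin, and Chrng, the fetal subunit of the acetylcholine receptor, had none.

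Tissue-specific bHLH factors of other lineages gave the contrast. Of 35 such genes 18 had a promoter peak, a share of 51.4% (35.6% to 67%), and 11 of the 35, or 31.4%, had a peak over the TSS, against 67.8% and 62.1% of all protein-coding genes. Their median width was 1364 bp, from 364 bp at Tcf23 to 33132 bp at Msgn1. The gene body of the median member of this list was covered to 0%, against 7.82% over all protein-coding genes and between 28.0% and 100% at the 4 members. The 4 members are short, from 1885 bp at Myf6 to 3227 bp at Myf5, and these shares were not matched for gene length. Msgn1 was the only gene of this list with a peak of 10 kb or more.

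**Figure D4:**
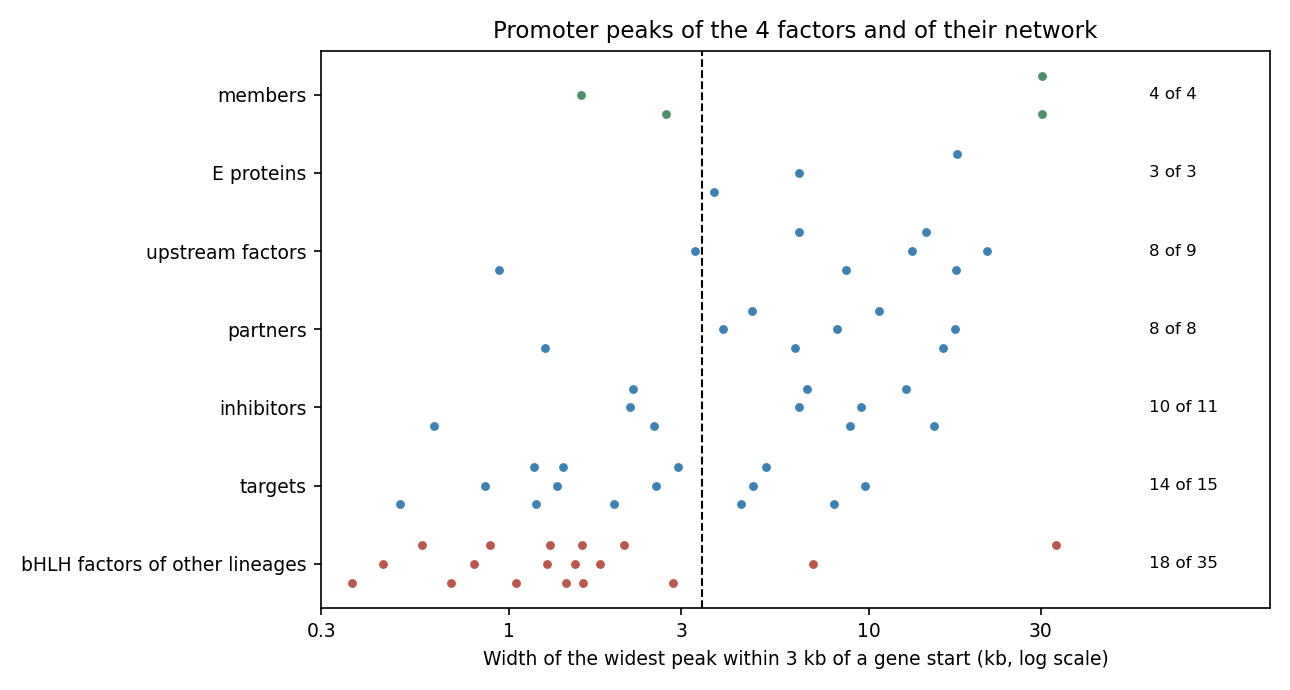
Width of the promoter peak (kb, log scale) of each gene with one, as a point, in the members, in the 5 lists of their network (blue) and in bHLH factors of other lineages (red); points are spread vertically only to separate them. The dashed line is the median of 3430 bp over protein-coding genes, and the numbers at the right give the genes with a promoter peak among those listed.

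The label of the cells was checked against marker genes. All 9 MuSC markers looked at, Myf5 and Myod1 among them, had a peak over the TSS, as had 62.1% of all protein-coding genes, with a median promoter peak of 12012 bp, from 2720 bp at Myod1 to 30239 bp at Myf5. The isolation removed cells positive for Sca1, CD45 or CD31, the products of Ly6a, Ptprc and Pecam1, with magnetic beads before the sort. Of 16 markers of other cells, 11 had a promoter peak (68.8%), 9 had a peak over the TSS (56.2%), and the median was 3440 bp, near the 67.8%, 62.1% and 3430 bp over all protein-coding genes. These were 3 of 4 fibro-adipogenic markers (from 1576 bp at Col1a1 to 5233 bp at Dcn, not Ly6a), 3 of 4 endothelial markers (from 1139 bp at Kdr to 12975 bp at Tek, not Cdh5), 4 of 4 myofibre markers (from 1024 bp at Myh4 to 4349 bp at Myh1) and 1 of 4 macrophage and blood markers (2636 bp at Cd68, not Ptprc, Adgre1 or Itgam). The authors reanalysed their sorted cells and reported incomplete purity, with a minority of cells outside the sorted population. Whether other cells contributed to the peaks at the members was not tested.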

How the data were processed

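H3K56ac ChIP-seq was done by the authors on freshly isolated MuSCs. Per the study's methods, reads were trimmed with Trim Galore, mapped to mm10 with bowtie while only single alignments were kept, freed of duplicates with Picard, and peaks were called with MACS2. Blacklisted regions were then taken out and overlapping peaks merged with GenomicRanges. Which libraries entered the merge is not given in the sources used here.

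The deposited list holds the start and end of 105600 intervals, and its score was 0 in every row, so that scores were not used. Since it has 0 columns of values per sample, the depth behind an interval cannot be read from it (reads per library are in the study's reporting summary and are not repeated here), and no comparison of Sirt6mKO with Control, no test and no p-value could be computed. Merging adds, widens and fuses intervals.

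Intervals were compared with GENCODE vM21 and GRCm38.p6, which is the build mm10, with NumPy 2.4.6 under Python 3.11.15. All intervals lay within their chromosomes. Coordinates count from 1, an overlap was at least 1 bp, and start sites of all annotated transcripts were used for promoter peaks. Distances were taken from the first protein-coding start. Promoters came from RefSeq, matched by symbol, for 2 of 4 members. Enhancer territories are approximate distances from general knowledge. Interval functions were tested on simulated data.

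The members, territories and lists were chosen with earlier results of these data known. Named genes are the members, all protein-coding genes reaching into a locus, the genes with the widest and the narrowest promoter peak of each list, those without one where at most 5, and the 3 genes most alike in peak edges for each member. Some genes of the lists are not reported here and stayed out of the counts. Alternatives were flanks of 50 and 200 kb, intervals of at least 500 bp, joining within 1 kb, promoters of 1 kb, start sites of protein-coding transcripts only, and 2 kb added to territories.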

Additional observations from a re-analysis of the deposited data

How the results depend on the processing

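Of 50 alternatives over 16 results, 30 stayed within the interval or factor set for them and 20 moved. That 0 reversed was fixed in advance, since shares, counts, widths and lengths have no direction. Flanks of 50 kb gave covered shares of 29.1% at Myog and 47.0% at Myf5 and Myf6, 10 peaks at Myod1 and 12 at Myf5 and Myf6, and longest silent stretches of 50.1, 19.6 and 30.7 kb at Myod1, Myog and Myf5 and Myf6. Flanks of 200 kb gave a covered share of 8.39% at Myod1, 54 peaks at Myf5 and Myf6, and longest silent stretches of 107 kb, 90.5 kb and 81.4 kb. Joining intervals less than 1 kb apart left 8, 14 and 9 peaks and promoter peaks of 3833 bp at Myod1, 10806 bp at Myog and 33032 bp at Myf5 and at Myf6. With promoters of 1 kb the Myog promoter peak was the one over the TSS, 767 bp. The covered share fell in the order Myf5 and Myf6, Myog, Myod1 under each of these settings, while the number of peaks did not keep its order, and the longest silent stretch was longest at Myod1 in each but changed its order between Myog and Myf5 and Myf6 with flanks of 200 kb. The moves with the flank follow from the size of the window. Shares were judged against a Wilson 95% interval with 1 draw per kb. Neighbouring kb are not independent draws, so this interval only sets the labels and measures no sampling spread. No paired analysis was possible because the list gives no value for any library, and no replicate could be left out. Depth limits every silent stretch, since peaks that were not detectable at the depth of these libraries are not in the list.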
